A study of Rattus norvegicus with 24 samples.

Results

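The transcripts described are those of the mitochondrial ribosomal protein genes in rat blood. The members were taken from the array's own gene names, as every gene called Mrpl or Mrps followed by a number. This gave 71 genes of 25885 on the array, read by 82 of 30367 probes, and each gene was represented by its brightest probe. RNA was measured on 24 two-color arrays, 4 in each of 6 groups of male Sprague Dawley rats that were 8 weeks old at the start and were fed for 6 weeks. Groups C-G0 and LPS-G0 received the control diet without beta-glucan, C-G1 and LPS-G1 the diet with oat beta-glucan of high molecular weight, and C-G2 and LPS-G2 that with oat beta-glucan of low molecular weight. The LPS groups were injected with E. coli lipopolysaccharide at 10 mg per kg to induce enteritis, while the C groups received saline. The rats are a model of systemic challenge, and only their blood was measured here. LPS-G0 replicates 3 and 4 are named as LPS in their titles and as control in another label, so results that use LPS-G0 are also given without them where this changes a call.

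Mitochondria carry their own ribosome, which translates only the few mitochondrially encoded proteins, all of them subunits of the respiratory chain and ATP synthase. Its RNAs are encoded in mitochondrial DNA, whereas its proteins are encoded in the nucleus, made in the cytosol and imported. Most proteins of the large subunit are named Mrpl and most of the small subunit Mrps, but Mrps18a and Mrps30 are counted here in the large subunit. A few ribosomal proteins have other names. Some have counterparts in bacteria, and others exist in mitochondria alone. In blood these transcripts come from leukocytes, platelets and immature red cells, while mature red cells have lost their mitochondria. In a bulk sample such as blood, fewer cells of a type and less RNA per cell cannot be told apart.

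The sequences upstream of 4 members are shown because the results turn on these genes. Mrpl40 and Mrpl42 were the only members that passed the test, Mrps23 had the next smallest p in that comparison, and Mrpl1 had the smallest p in C-G1 vs. C-G0. They are the 150 bases that precede the annotated start in RefSeq (build GRCr8), written in the gene's direction, with capitals marking matches on either strand to the GC box (GGGCGG) or to the box CCAAT.
Mrpl40, chr11:95637601-95637750, plus strand: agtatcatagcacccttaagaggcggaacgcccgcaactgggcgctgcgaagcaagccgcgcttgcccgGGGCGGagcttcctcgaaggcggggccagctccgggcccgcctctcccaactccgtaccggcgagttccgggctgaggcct
Mrpl42, chr7:32028523-32028672, minus strand: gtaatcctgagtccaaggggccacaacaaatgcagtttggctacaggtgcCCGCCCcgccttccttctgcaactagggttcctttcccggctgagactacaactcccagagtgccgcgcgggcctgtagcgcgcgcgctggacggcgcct
Mrps23, chr10:73496088-73496237, plus strand: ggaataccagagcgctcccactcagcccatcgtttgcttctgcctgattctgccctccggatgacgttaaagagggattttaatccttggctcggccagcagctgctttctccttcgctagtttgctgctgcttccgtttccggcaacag
Mrpl1, chr14:13663522-13663671, minus strand: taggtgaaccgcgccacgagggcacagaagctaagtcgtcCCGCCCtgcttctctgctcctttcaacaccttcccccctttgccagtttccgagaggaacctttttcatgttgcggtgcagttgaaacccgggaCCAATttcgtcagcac

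The GC content of these stretches was 69.3% for Mrpl40, 63.3% for Mrpl42, 54.7% for Mrps23 and 56.0% for Mrpl1. A RefSeq window from 250 bases before to 50 bases after the start was found for 56 of the 71 members. The motifs were searched on both strands. Shares of members count genes with a match in any of their windows, whereas shares of all windows count single windows, so their units differ. The ETS core CCGGAAG stood in the windows of 18 of the 56 members (32.1%) and in 8.75% of all 33469 windows. The YY1 motif AAGATGGC stood in 14 members (25%) against 3.17% of all windows, and GCGCATGC, the core of the NRF1 motif, in 5 members (8.93%) against 2.47%. GGGCGG stood in 29 members (51.8%) against 33.1%, and CCAAT in 26 members (46.4%) against 37.5%. Mrpl42 held AAGATGGC beginning at base 20 after its start, outside the printed stretch, and Mrpl40, Mrps23 and Mrpl1 held none of the ETS, YY1 and NRF1 letters in these windows. A match describes the letters only.

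Of the 71 members, 52 were tested. A probe was tested when its rat RNA signal was well above background on all 4 arrays of at least 1 group, and 41 of the 52 were so in both channels on all 24 arrays. By role, the tested members were 22 of 26 large-subunit proteins with bacterial counterparts, 13 of 18 large-subunit proteins particular to mitochondria, 8 of 14 conserved small-subunit proteins and 7 of 11 small-subunit proteins particular to mitochondria. The 2 others were Mrps36, now known as Kgd4 and assigned to the oxoglutarate dehydrogenase complex, and Mrps21l, a gene named as similar to Mrps21. The 19 untested members were Mrpl3, Mrpl15, Mrpl16, Mrpl38, Mrpl43, Mrpl47, Mrpl49, Mrpl50, Mrpl51, Mrps2, Mrps5, Mrps9, Mrps10, Mrps11, Mrps14, Mrps18b, Mrps22, Mrps27 and Mrps28. Mrps27, a small-subunit protein particular to mitochondria, was well above background on 7 of 24 arrays, 3 of them in LPS-G1, 2 in C-G0 and none in LPS-G0 or C-G1. No fold change is given for it. Between 43 and 64 members, and between 7796 and 15402 probes in all, were well above background per array.

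Values are log2 ratios of rat RNA over a common reference of pooled rat RNA. Signs follow the sample labels, which name Cy3 for the rat RNA, whereas the methods of the study name Cy5, so each direction here rests on the labels. The 2 channels were compared on 7089 probes well above background in both. The median SD between arrays of the same group was 0.35 in Cy3 and 0.20 in Cy5, as log2 signal, and 40 of 41 members varied more in Cy3.

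The members as a group lay close to the reference on nearly every array. The median log2 ratio over the 52 members was, for replicates 1 to 4, -0.35, -0.08, -0.03 and 0.04 in C-G0 and -0.04, -0.06, 0.03 and -0.27 in LPS-G0. It was 0.09, 0.26, -0.04 and 0.03 in C-G1 and 0.10, 0.04, 0.09 and 0.16 in LPS-G1. In C-G2 it was -0.04, -0.01, -0.02 and 0.09, and in LPS-G2 0.03, -0.07, 0.02 and 0.02. The arrays that stood lowest were C-G0 replicate 1 and LPS-G0 replicate 4, and the highest was C-G1 replicate 2. The group means of these medians were -0.11 ± 0.17 (SD, n = 4) in C-G0, -0.09 ± 0.13 in LPS-G0, 0.09 ± 0.13 in C-G1, 0.10 ± 0.05 in LPS-G1, 0.01 ± 0.06 in C-G2 and 0.00 ± 0.05 in LPS-G2. The 4 arrays of LPS-G1 lay above the 4 of LPS-G0 and above the 4 of LPS-G2, and the other pairs of groups compared here overlapped.

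**Figure D1:**
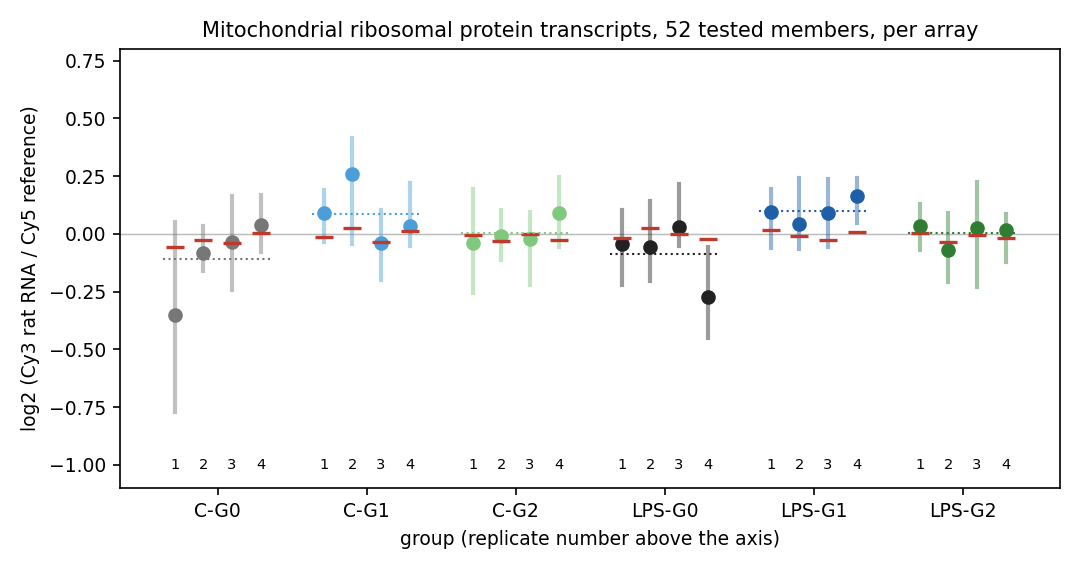
Median log2 ratio of rat RNA over the reference for the 52 tested members on each of 24 arrays (filled points), with bars from the lower to the upper quartile of the members, the median of all probes on that array (red dashes) and the mean of each group's 4 points (dotted lines). The median of C-G0 replicate 1 is -0.35 and that of LPS-G0 replicate 4 is -0.27, while the LPS-G1 arrays lie between 0.04 and 0.16.

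LPS-G1 was compared with LPS-G0 to find what the high-molecular-weight beta-glucan changed in rats given LPS, and this was the comparison in which members passed the test. Mrpl40 and Mrpl42, both large-subunit proteins particular to mitochondria, were lower in LPS-G1. They were the 2 of 52 members (3.85%) called lower at an adjusted p under 0.05, beside 8.38% of all 10321 probes, and 0 members were called higher, beside 0.543%. No member passed with at least a 2-fold change, which 0.988% of all probes did.

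The log2 ratio of Mrpl40 was 0.61, 0.42, 0.48 and 0.45 in LPS-G0 and 0.15, -0.29, -0.15 and -0.33 in LPS-G1. Each LPS-G1 array was lower than each LPS-G0 array, which held for this member alone (1.92%) and for 14.6% of all probes. The change was -0.65 on the log2 scale, or 1.57-fold lower (SE 0.14, adjusted p = 0.0290 by limma with Benjamini-Hochberg adjustment), and the exact permutation p was 0.0286, the smallest that 4 against 4 arrays can give. Mrpl42 was 0.71, 0.70, 0.24 and 0.67 in LPS-G0 and 0.31, -0.48, -0.05 and -0.29 in LPS-G1. LPS-G0 replicate 3 lay below LPS-G1 replicate 1, so the groups overlapped. The change was -0.71, or 1.63-fold lower (SE 0.19, adjusted p = 0.0344 by limma), and the exact permutation p was 0.0571. Within slides 1, 2 and 3 the difference was -0.37, -0.70 and -0.78 for Mrpl40 and -0.39, -0.51 and -0.96 for Mrpl42. Both were lower in LPS-G1 on each slide. However, the only LPS-G0 array was replicate 3 on slide 2 and replicate 4 on slide 3, both of conflicting labels. With the slide as a block in the fit, the adjusted p was just over 0.05 for Mrpl40 and 0.0567 for Mrpl42 by limma. With LPS-G0 replicates 3 and 4 left out the changes were -0.67 and -0.83, and the adjusted p was 0.127 for both by limma. With 1 array left out at a time, the adjusted p by limma ranged from 0.0117 to 0.104 for Mrpl40 and from 0.0136 to 0.118 for Mrpl42, and both calls were lost without LPS-G0 replicate 1, 2 or 4 or LPS-G1 replicate 2, 3 or 4, where between 0 and 11 of all probes were called.

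**Figure D2:**
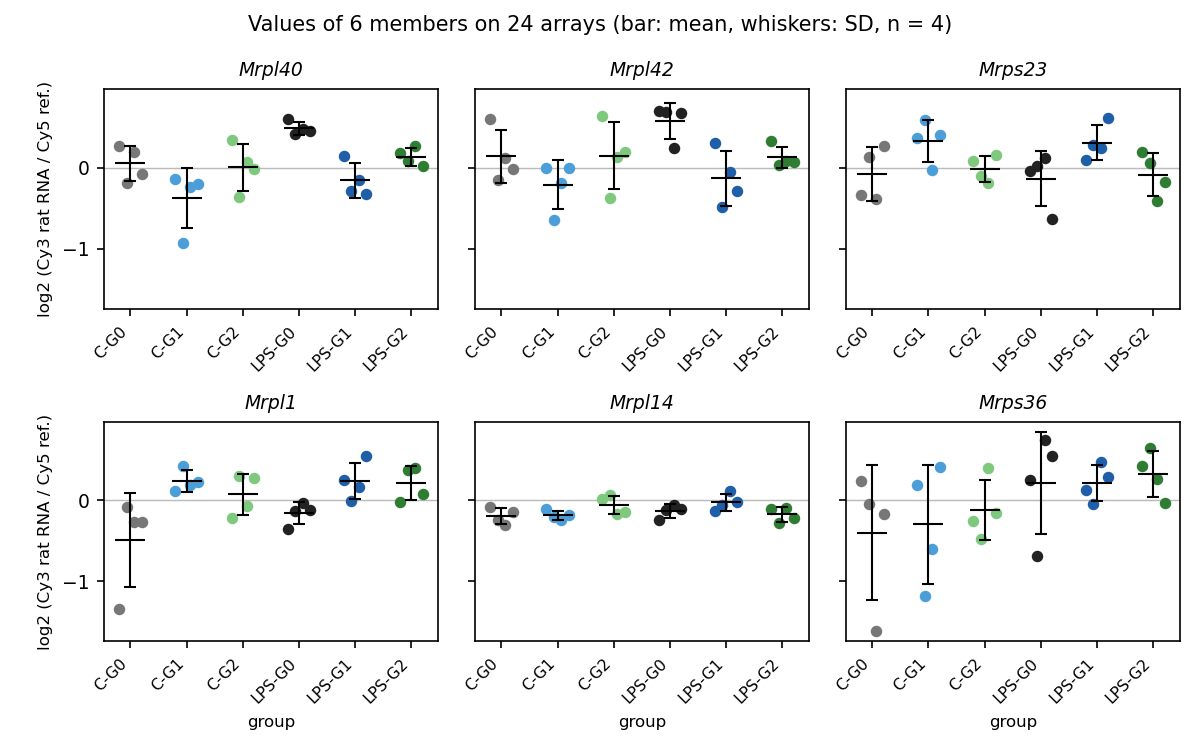
Log2 ratio of rat RNA over the reference for 6 members on 24 arrays in 6 groups, with points for arrays, a bar for the mean and whiskers for the SD of 4 arrays. Mrpl40 and Mrpl42 are highest in LPS-G0, Mrps23 and Mrpl1 include low arrays in LPS-G0 and C-G0, Mrpl14 varied least over the arrays (SD 0.11) and Mrps36 most (SD 0.57).

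The rest of the members leaned the other way. Of the 52, 41 (78.8%) had a change above 0 in LPS-G1 vs. LPS-G0, beside 55.4% of all probes, and their median change was 0.19, beside 0.06 for all probes. The median SE of a member's change was 0.18. By role, the change was above 0 for 18 of 22 conserved large-subunit proteins (median 0.23), 8 of 13 large-subunit proteins particular to mitochondria (0.11), 7 of 8 conserved small-subunit proteins (0.20) and 7 of 7 small-subunit proteins particular to mitochondria (0.28). Mrps23, which belongs to the last role, was -0.04, 0.02, 0.12 and -0.64 in LPS-G0 and 0.10, 0.29, 0.24 and 0.62 in LPS-G1. Its groups overlapped by LPS-G0 replicate 3 and LPS-G1 replicate 1, and the change was 0.45 (SE 0.20, adjusted p = 0.170 by limma). The groups did not overlap, with LPS-G1 higher, for 6 members (11.5%), namely Mrps34, Mrps16, Mrpl1, Mrpl17, Mrpl36 and Mrpl34, beside 7.31% of all probes, and their adjusted p lay between 0.199 and 0.426 by limma. The median change of the members within slides 1, 2 and 3 was 0.12, 0.00 and 0.39, so that it was near 0 on slide 2. LPS-G0 was represented by replicate 3 alone on slide 2 and by replicate 4 alone on slide 3.

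**Figure D3:**
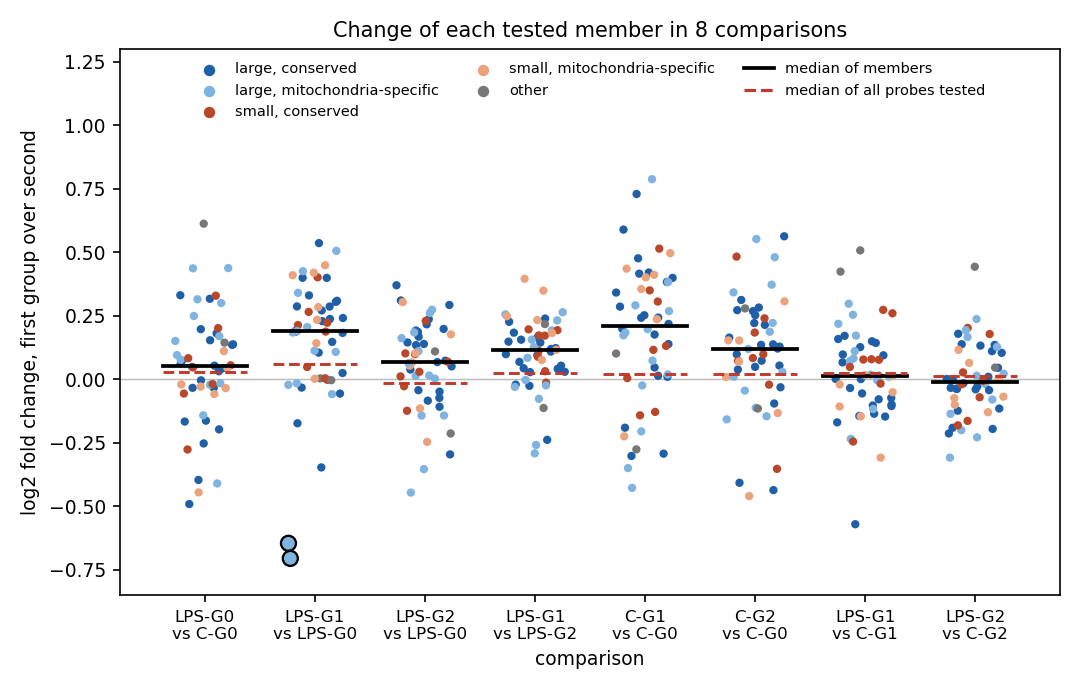
Log2 fold change of each of 52 members in 8 comparisons, first group over second, with points colored by subunit and conservation, the median of the members (black line) and that of all probes tested (red dashed line). The 2 large ringed points in LPS-G1 vs. LPS-G0 are Mrpl40 and Mrpl42, the only members past the test, at -0.65 and -0.71, while the median of the members there is 0.19.

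LPS-G0 was compared with C-G0 for the effect of LPS on the control diet. By limma 0 of 52 members were called, beside 0.00969% of 10321 probes, and 3 (5.77%) had an unadjusted p under 0.05, beside 15.2% of all probes. Mrpl40, at 0.27, -0.18, 0.20 and -0.07 in C-G0, was lower there than on each LPS-G0 array, with a change of 0.44 (SE 0.14, adjusted p = 0.220 by limma, exact permutation p = 0.0286). Mrpl42 was 0.60, -0.15, 0.12 and -0.01 in C-G0 and changed by 0.44 (SE 0.19, adjusted p = 0.298). Mrpl10, a protein of the ribosome's stalk base, was -0.45, 0.49, 0.56 and 0.09 in C-G0 and -0.58, -0.22, 0.03 and -0.50 in LPS-G0. Its groups overlapped, and its change was -0.49 (SE 0.20, adjusted p = 0.278). Mrpl40 was the only member whose groups did not overlap (1.92%, beside 5.04% of all probes). The median change of the members was 0.05 beside 0.03 for all probes, 31 of 52 were above 0 (59.6%, beside 53.5%), and the median was -0.05 without C-G0 replicate 1, 0.11 without C-G0 replicate 4 and 0.12 without LPS-G0 replicate 4. Without C-G0 replicate 1, Mrpl40, Mrpl42 and Mrpl10 were called (5.77%, beside 11% of all probes in that setting), with adjusted p of 0.0309, 0.0447 and 0.0212 by limma. In this comparison 5 of 5 cytotoxic and NK cell markers had an unadjusted p under 0.05, all higher in LPS-G0 (median change 0.87), and 4 of 4 neutrophil markers were below 0 (median -0.57), 2 of them at an unadjusted p under 0.05. The part of these cells in the values of the members was not tested.

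LPS-G2 was compared with LPS-G0 for the low-molecular-weight beta-glucan. By limma 0 of 52 members were called, beside 0% of all probes, and 2 (3.85%) had an unadjusted p under 0.05, beside 8.23%. These were again Mrpl40 and Mrpl42, but LPS-G0 enters each of these comparisons, so they share its 4 arrays. Mrpl40 was 0.18, 0.08, 0.27 and 0.02 in LPS-G2, lower than each LPS-G0 array, and changed by -0.35 (SE 0.14, adjusted p = 0.597 by limma, exact permutation p = 0.0286). Mrpl42 was 0.33, 0.04, 0.08 and 0.08 in LPS-G2, overlapping LPS-G0, and changed by -0.45 (SE 0.19, adjusted p = 0.597). Mrpl27, a conserved protein near the peptidyl transferase center, came next at -0.30 (SE 0.16, adjusted p = 0.597). The groups did not overlap for Mrpl40 and Mrpl1 (3.85%, beside 10.5% of all probes). The median change was 0.07 beside -0.02 for all probes, with 37 of 52 members above 0 (71.2%, beside 47.4%). Leaving out LPS-G0 replicate 4 gave a median of 0.01, and leaving out replicate 3 one of 0.12.

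LPS-G1 and LPS-G2 were also set against each other, since their diets differ by the molecular weight of the beta-glucan. By limma 0 of 52 members were called, beside 0% of all probes, and 0 had an unadjusted p under 0.05, beside 6.68%. The change of Mrpl40 was -0.29 (SE 0.14, adjusted p = 0.679 by limma), that of Mrps23 0.40 (SE 0.20) and that of Mrpl53, a large-subunit protein particular to mitochondria, 0.25 (SE 0.16). The median change was 0.12 beside 0.02 for all probes, and 41 of 52 members were above 0 (78.8%, beside 53.4%). The groups did not overlap for Mrpl17 (1.92%, beside 6.65% of all probes). A p that misses the threshold does not show that the diets act alike.

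C-G1 was compared with C-G0 for the high-molecular-weight beta-glucan without LPS. By limma 0 of 52 members were called, beside 0.028% of 10715 probes. At an unadjusted p under 0.05, 9 members were higher (17.3%, beside 12.2% of all probes) and Mrpl40 alone was lower (1.92%, beside 15.8%). These 10 became 1 without C-G0 replicate 1 (1.92%, beside 10.4% of all probes), 5 without C-G1 replicate 2, 4 with normexp and loess as the background correction and normalization, and 3 with the arrays of the 2 compared groups alone. For these later settings the share of all probes is not given, so the counts are not read as results about the members. Mrpl1, the protein of the mobile stalk beside the tRNA exit site, was -1.35, -0.08, -0.26 and -0.26 in C-G0 and 0.11, 0.43, 0.20 and 0.23 in C-G1. Each C-G1 array was higher, and the change was 0.73 (SE 0.21, adjusted p = 0.106 by limma, exact permutation p = 0.0286), with C-G0 replicate 1 far below the others. Mrpl46, particular to mitochondria, was -1.44, -0.35, -0.70 and 0.02 in C-G0 and 0.42, 0.40, -0.36 and 0.22 in C-G1, a change of 0.79 (SE 0.27, adjusted p = 0.128). It was well above background on 2 of 4 arrays in C-G0 and on all 4 only in C-G1 and LPS-G1, the groups through which it was tested, so its change is uncertain. Mrpl13, a conserved protein, was -0.81, -0.45, -0.52 and -0.03 in C-G0 and -0.01, -0.03, -0.16 and -0.07 in C-G1, a change of 0.38 (SE 0.14, adjusted p = 0.131). Both pairs of groups overlapped. Without C-G0 replicate 4, 5 members (9.62%, beside 8.99% of all probes in that setting) were called higher, Mrpl1, Mrpl46 and Mrpl13 among them, with adjusted p of 0.0362, 0.0329 and 0.0207 by limma.

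Mrpl40 was -0.13, -0.92, -0.24 and -0.20 in C-G1, and its change from C-G0 was -0.43 (SE 0.18, adjusted p = 0.143 by limma). The groups did not overlap for Mrpl1, Mrpl20 and Mrpl17, all higher in C-G1 (5.77%, beside 3.07% of all probes). The median change of the members in C-G1 vs. C-G0 was 0.21 beside 0.02 for all probes, and 41 of 52 were above 0 (78.8%, beside 51.4%). By role this held for 19 of 22 conserved large-subunit proteins, 9 of 13 others of the large subunit, 6 of 8 conserved small-subunit proteins and 6 of 7 others of the small subunit. The median was 0.13 without C-G0 replicate 1 and 0.10 with normexp and loess. In this comparison 5 of 8 erythroid and 3 of 5 cell-division markers tested were lower in C-G1 at an unadjusted p under 0.05, beside 15.8% of all probes. The median changes of these lists were -0.94 and -1.09, and none of their markers was called by limma. Their part in the values of the members was not tested.

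C-G2 vs. C-G0 uses the same control arrays. By limma 0 of 52 members were called, beside 0.028% of all probes, and at an unadjusted p under 0.05, 3 were higher (5.77%, beside 5.4%) and 2 lower (3.85%, beside 7.84%). Mrps24, a conserved protein at the mRNA entry of the small subunit, was -0.96, -0.50, -0.40 and 0.07 in C-G0 and -0.12, -0.08, 0.03 and 0.31 in C-G2, a change of 0.48 (SE 0.18, adjusted p = 0.255). Mrpl53 was -0.12, -0.49, -0.42 and -0.23 in C-G0 and 0.46, -0.09, -0.14 and 0.43 in C-G2, a change of 0.48 (SE 0.17, adjusted p = 0.256). Mrpl1, at -0.22, 0.30, -0.06 and 0.28 in C-G2, changed by 0.56 (SE 0.21, adjusted p = 0.271). All of these groups overlapped. The median change was 0.12 beside 0.02 for all probes, with 39 of 52 above 0 (75%, beside 52.7%), and it was 0.01 without C-G0 replicate 1.

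On the beta-glucan diets, LPS-treated and saline-treated rats were compared with each other. In LPS-G1 vs. C-G1, 0 of 52 members were called by limma, beside 0.00933% of all probes, and Mrps21l alone (1.92%, beside 2.81%) had an unadjusted p under 0.05, at 0.42 (SE 0.16, adjusted p = 0.950). Mrpl37, particular to mitochondria, followed at 0.30 (SE 0.15) and Mrps21 at 0.26 (SE 0.14). In LPS-G2 vs. C-G2, 0 of 52 were called, beside 0% of all probes, and 0 had an unadjusted p under 0.05, beside 1.09%. The 3 with the smallest p were Mrpl53 at -0.31 (SE 0.17), Mrpl44 at -0.23 (SE 0.14) and Mrpl48 at 0.24 (SE 0.18). The medians of the members were 0.01 and -0.01 in these comparisons, beside 0.03 and 0.01 for all probes, with 30 (57.7%) and 24 (46.2%) of 52 above 0, beside 54.3% and 52.7%.

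Whether the response to LPS differed between diets was tested as an interaction. For G1 against G0, 0 of 52 members were called by limma, beside 0% of all probes, and 1 (1.92%, beside 3.01%) had an unadjusted p under 0.05, namely Mrpl13 at -0.42 (SE 0.20, adjusted p = 0.999). The next were Mrpl21 at 0.54 (SE 0.30) and Mrps15, a conserved protein that helps to bridge the subunits, at 0.36 (SE 0.21). For G2 against G0, again 0 of 52 were called, beside 0%, and 2 (3.85%, beside 5.56%) had an unadjusted p under 0.05, Mrpl53 at -0.62 (SE 0.25) and Mrps15 at 0.45 (SE 0.21), with an adjusted p of 0.833 for both. Mrps24 followed at -0.51 (SE 0.25). Tukey's HSD was also run on the pooled spread of a one-way analysis of variance, without its F test, and adjusted across probes. It called 0 members in each of the 8 comparisons of groups. In LPS-G1 vs. LPS-G0 it called 0 of all probes as well, so that 0 is not particular to the members.

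The members varied less between rats than most probes. The median SD within a group was 0.24 over the 52 members and 0.32 over all probes tested, and 77.2% of probes varied more than the median member. C-G0 was the most variable group both for the members (median SD 0.30) and for all probes (0.38), and LPS-G2 and LPS-G1 the least for both (0.17 each for the members, 0.22 and 0.23 for all probes). Mrpl14, which lies at the interface of the subunits, had the smallest SD over the 24 arrays (0.11), with values from -0.31 to 0.11. Mrps36 had the largest SD (0.57). It was 0.25, -0.04, -1.62 and -0.17 in C-G0 and 0.26, -0.69, 0.74 and 0.55 in LPS-G0, so its arrays of the same group lay further apart than the group means.

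Most members were positively but weakly correlated with each other from rat to rat within groups. Deviations from the group means were correlated over the 24 arrays, as a description, since the values share arrays, reference and dye balance. The mean Pearson r over the 1326 pairs of members was 0.13, beside 0.01 over the pairs of 10683 probes, and 64.0% of the pairs were above 0. Mrpl17 followed the mean of the other 51 members most closely (r = 0.84), then Mrps34 (0.81), Mrpl13 (0.80), Mrps33 (0.79) and Mrps26 (0.79). The pair with the highest r was Mrps33 and Mrps34 (0.91). For 12 members r with the mean of the others was below 0, the lowest being Mrpl42 (-0.49), Mrpl37 (-0.43), Mrps18c (-0.41), Mrpl40 (-0.40) and Mrps21l (-0.39). Mrpl40 and Mrpl42 were correlated with each other at 0.85, the ninth highest of the pairs, and the lowest r of the pairs was -0.76 for Mrpl42 and Mrps33. These genes were singled out after their values were seen.

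The members with r above and below 0 are given side by side by their changes between groups, though r lies near 0 for some, such as Mrps21 (-0.04). Of the 40 members with r of at least 0, 35 were above 0 in LPS-G1 vs. LPS-G0 (median 0.23) and 36 in C-G1 vs. C-G0 (median 0.28). Of the 12 with r below 0, 6 were above 0 in the former (median -0.00) and 5 in the latter (median -0.16). In LPS-G0 vs. C-G0, the counts were 20 of 40 (median 0.01) and 11 of 12 (median 0.17). The division was made from these values, so the difference was not tested.

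**Figure D4:**
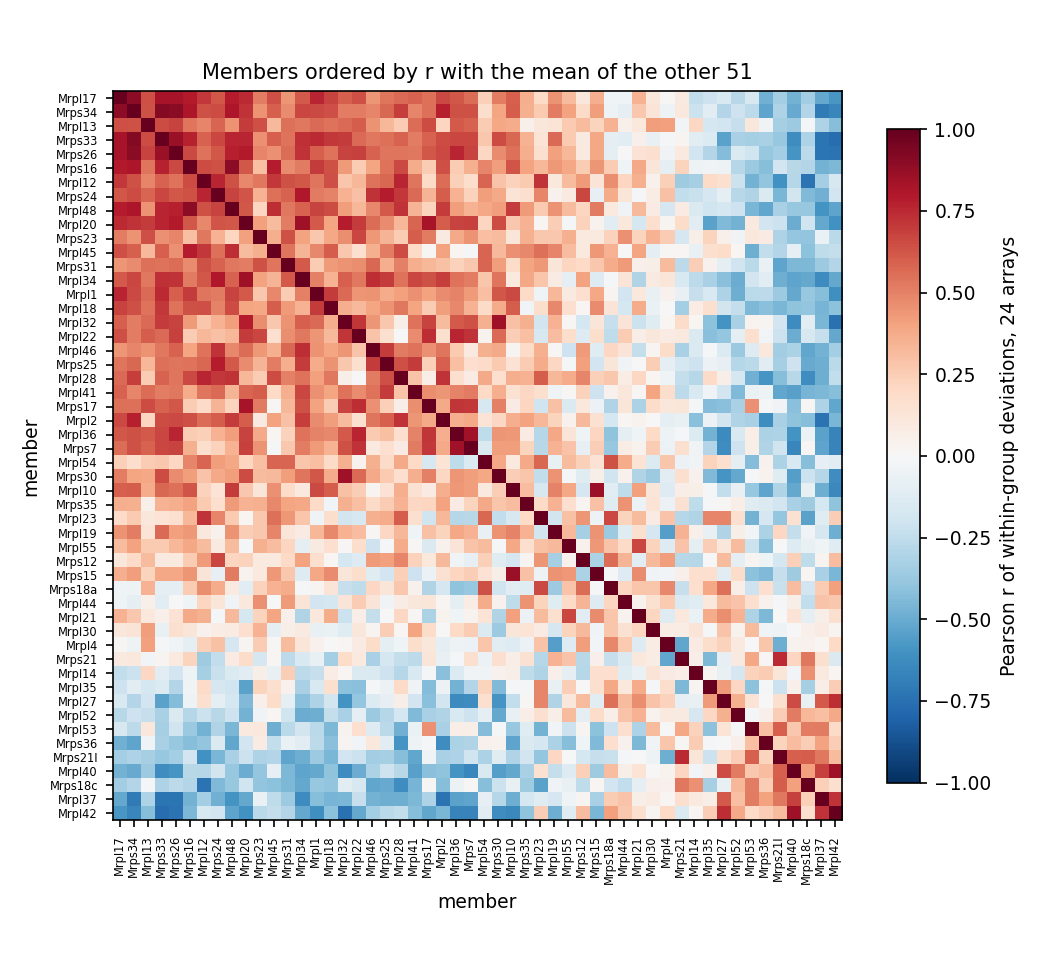
Pearson r between the within-group deviations of each pair of the 52 tested members over 24 arrays, with red for r above 0 and blue for r below 0, ordered by r with the mean of the other 51. A block from Mrpl17 to Mrpl10 is mostly red, and the members at the end, among them Mrpl40, Mrpl37 and Mrpl42, are blue against it and red with each other.

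Mrpl40 was read by 2 probes that did not give the same result. The brightest lies at chr11_random:1150898-1150957 and the other at chr11_random:1149328-1149387 of rn4, the build of the array's design, and both were well above background on all 24 arrays. The second probe had means of -0.14 ± 0.28 (SD, n = 4) in LPS-G0 and -0.03 ± 0.06 in LPS-G1, and its change was 0.11, whereas that of the brightest was -0.65. The signs also differed in LPS-G2 vs. LPS-G0 (0.18 by the second probe, -0.35 by the brightest) and in C-G1 vs. C-G0 (0.29 and -0.43), while in LPS-G0 vs. C-G0 both were above 0 (0.17 and 0.44). In C-G2 vs. C-G0 the second probe changed by 0.37 (adjusted p = 0.352 by limma) and the brightest by -0.04. The within-group deviations of both probes were uncorrelated (r = -0.09 over 24 arrays). With the tested probes of each gene averaged, the change of Mrpl40 was -0.27 (adjusted p = 0.174 by limma), and 1 member, Mrpl42, was called. Mrpl42 has 1 probe, at chr7:32702599-32702658 of rn4.

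**Figure D5:**
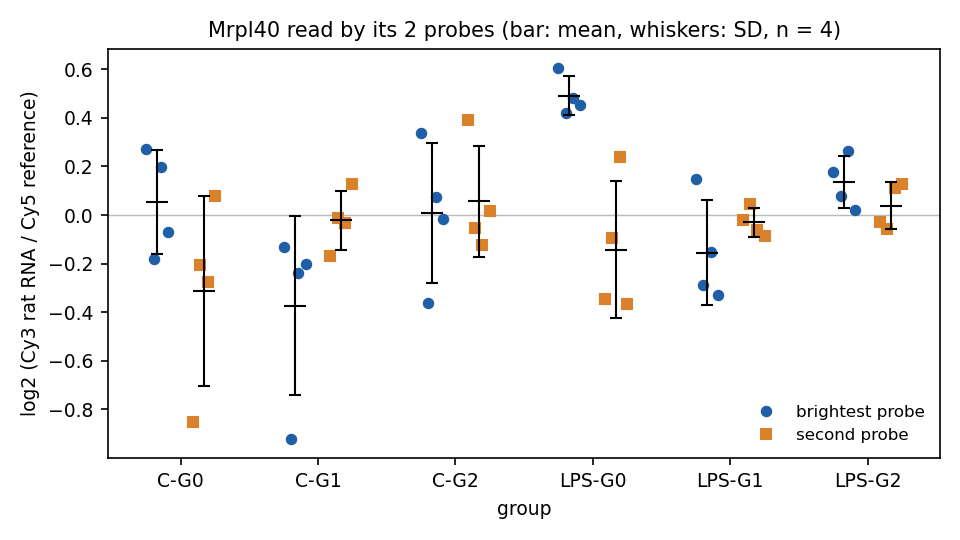
Log2 ratio of Mrpl40 on 24 arrays by its brightest probe (circles) and its second probe (squares), with bars for the mean and whiskers for the SD of 4 arrays per group. The brightest probe is highest in LPS-G0 (mean 0.49), where the second has a mean of -0.14.

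Of the other members with several tested probes, Mrpl41 and Mrpl54 had probes whose deviations followed each other (r = 0.82 and 0.85), while r was 0.45 for Mrpl2, 0.31 for Mrps16, 0.05 for Mrpl10 and -0.05 for Mrps21. No member had probes that changed in opposite directions with an unadjusted p under 0.05 for both. For Mrpl10 the second probe changed by 0.02 in LPS-G0 vs. C-G0, where the brightest changed by -0.49. For Mrps21 the second probe changed by -0.62 in LPS-G1 vs. LPS-G0 (adjusted p = 0.0533 by limma), where the brightest changed by 0.05.

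Other genes of mitochondrial translation are given beside the share of all probes called in LPS-G1 vs. LPS-G0, which was 8.92%. In LPS-G1 vs. LPS-G0, Sars2, the mitochondrial seryl-tRNA synthetase, was the only one called, at -0.55 (SE 0.16, adjusted p = 0.0452 by limma), among 6 tested of 17 mitochondrial tRNA synthetases listed (median change 0.35). Of the ribosomal proteins with other names, 0 of 6 were called (median 0.14), and Dap3, a small-subunit protein, stood lowest at -0.46 (SE 0.20, adjusted p = 0.157). Of the translation factors, 0 of 5 tested were called (median 0.30), with Tufm, the elongation factor that brings tRNA to the ribosome, at 0.45 (SE 0.18, adjusted p = 0.114). Of 7 tested genes of ribosome assembly 0 were called (median 0.41), as were 0 of 4 of mitochondrial RNA synthesis and stability (median 0.23). In the 7 other comparisons 0 genes of these lists were called by limma, beside 0% to 0.028% of all probes.

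Markers of other cells also differed between groups. The median log2 ratio of 8 erythroid markers ranged over the 4 arrays from 0.18 to 0.32 in LPS-G0, from -0.55 to 0.02 in LPS-G1, from -0.22 to 0.39 in C-G0 and from -1.43 to -0.22 in C-G1. In LPS-G1 vs. LPS-G0, 2 of these 8 were called lower, Klf1 at -0.81 (adjusted p = 0.0290 by limma) and Epb42 at -0.93 (adjusted p = 0.0408), and 6 of 8 were below 0. Of all probes, 8.38% were called lower there and 44.6% were below 0. Of 5 cell-division markers tested, Tpx2 and Ube2c were called lower in that comparison, at -1.68 (adjusted p = 0.0374) and -2.50 (adjusted p = 0.0290), and all 5 were below 0. Their median ranged from 0.46 to 0.85 in LPS-G0 and from -0.81 to 0.08 in LPS-G1. Mrpl42, and Mrpl40 by its brightest probe, had their highest mean in LPS-G0 and their lowest in C-G1, as did the medians of these markers. In C-G2 the means were -0.17 for the erythroid and -0.24 for the cell-division markers, but 0.15 for Mrpl42 and 0.01 for Mrpl40. In LPS-G2 they were 0.10 and 0.16 for the markers, and 0.13 and 0.14 for Mrpl42 and Mrpl40. The second probe of Mrpl40 did not have this order, with means of -0.31 in C-G0, -0.14 in LPS-G0, -0.02 in C-G1 and -0.03 in LPS-G1. The part of these cells in the change of Mrpl40 and Mrpl42 was not tested. Of the T cell, B cell, cytotoxic and NK cell, neutrophil, monocyte and platelet markers, none was called in that comparison by limma, beside 8.92% of all probes.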

How the data were processed

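Blood RNA of 24 rats, each on 1 two-color Agilent SurePrint G3 rat array against a common reference, was measured in 6 groups of 4. The groups come from the sample titles. The deposited log10 ratios of processed Cy5 over processed Cy3 and the deposited processed intensities of both channels were made by the authors with Agilent Feature Extraction (10.10.1.1 per the file headers, 10.7.3.1 per the labels), with background subtraction and Lowess balancing of the dyes done array by array. The deposited series table holds 1511424 log10 ratios, equal to those of the single arrays. The reference pooled RNA of rats of the same groups that were not hybridized themselves.

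Ratios were turned to log2 of Cy3 over Cy5. Of 62976 spots on an array, 58717 were not controls. Outlier spots were left out and spots of a probe averaged. The filter left 10321 probes in the fit of 16 arrays (the 3 LPS groups and C-G0, as in the study) and 10715 in that of 24 arrays, which served the other comparisons. limma 3.58.1 in R 4.3.3 gave two-sided moderated tests, Benjamini-Hochberg adjusted over all probes tested, and a member was called at an adjusted p under 0.05. The limma test was tested on simulated data. Single members were also tested by the two-sided exact permutation test over 70 arrangements. The number of arrays limits the precision.

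Named members are those called, or else the 3 with the smallest unadjusted p in a comparison, plus the members untested, most and least variable, with discordant probes, and Mrps27. The members and lists were chosen with earlier results of these data known, so counts over lists carry no test. Of the members, 66 were matched to RefSeq (GRCr8) by accession, and no GRCr8 position was compared with the rn4 probe positions. Arrays lay on 3 slides of 8 that each held all 6 groups, and each slide was scanned once. Replicate numbers were not treated as pairs, since in 0 of 15 pairs of groups did every same-numbered pair of arrays correlate above 0.1. The mean r of same-numbered arrays was still above that of the others in most pairs of groups, such as C-G0 and C-G2 (0.33 against -0.11). It was below in the rest, such as LPS-G0 and C-G2 (-0.09 against 0.03). Alternatives covered the slide and replicate block, normalization, filter, array weights, channel, probes per gene, test, arrays in the fit and each array left out.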

Additional observations from a re-analysis of the deposited data

Results flagged for a closer look

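In 8 of 120 sets of 4 arrays (19 named members and the median of the members, in 6 groups), 1 array lay apart from the 3 others by a larger part of the range of the 4 than Dixon's 95% limit. Chance flags about 1 in 20 such sets, and over all 52 members and 6 groups 17 of 312 sets (5.45%) were flagged. Mrpl1 was -1.35 on C-G0 replicate 1, where the others lay between -0.26 and -0.08, and this array enters each comparison with C-G0. Mrpl42 was 0.24 on LPS-G0 replicate 3, an array of conflicting labels, where the others lay between 0.67 and 0.71, and 0.33 on LPS-G2 replicate 1, where the others lay between 0.04 and 0.08. Mrpl40 was -0.92 on C-G1 replicate 2, and the others lay between -0.24 and -0.13. Mrpl37 was 0.0052 on LPS-G1 replicate 2 (others 0.25 to 0.29), Mrpl44 was -0.11 on C-G2 replicate 2 (others 0.26 to 0.30) and Mrpl21 was -0.24 on LPS-G2 replicate 4 (others 0.31 to 0.39). The median of the members was -0.069 on LPS-G2 replicate 2 and 0.02 to 0.03 on the others. No interaction of LPS and diet had a member at an adjusted p under 0.05.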

How the results depend on the processing

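The 2 members called in LPS-G1 vs. LPS-G0 rested on the processing, as did the calls over all probes. The count was 0 with the slide as a block, without a filter on dim probes, with LPS-G0 replicates 3 and 4 left out, with Cy3 alone, by analysis of variance with Tukey's HSD and with all 24 arrays in the fit, settings in which 0 of all probes were called, or 3 with all 24 arrays. It was 1 (1.92%, beside 9.44% of all genes) with all probes of a gene averaged and 7 (13.5%, beside 28.1% of all probes), of which 5 were higher, with array weights. Leaving out 1 array at a time gave 0 to 2, with 0 without LPS-G0 replicate 1, 2 or 4 or LPS-G1 replicate 2, 3 or 4. Mrpl40 and Mrpl42 kept their direction under each of these alternatives, with changes from -0.75 to -0.27 and from -0.85 to -0.51 and adjusted p from 0.0009 to 0.375 and from 0.0013 to 0.437 by limma or, for the analysis of variance, Tukey's HSD. In LPS-G0 vs. C-G0 the count of 0 became 3 with array weights (5.77%, beside 11.3% of all probes), and 0 to 3 with 1 array left out, 3 being without C-G0 replicate 1 (beside 11%). In C-G1 vs. C-G0 it was 1 with the replicate number as a replicate block, Mrpl1 (adjusted p = 0.0421, 1.92% beside 5.31% of all probes), and 0 to 5 with 1 array left out, 5 being without C-G0 replicate 4 (9.62%, beside 8.99%). In C-G2 vs. C-G0 leaving out 1 array gave 3 to 14 members with an unadjusted p under 0.05, the most without C-G0 replicate 4, counts of calls of 0 to 1 and medians of 0.0106 to 0.16, the lowest without C-G0 replicate 1. The replicate block changed no other count of calls, but the members with an unadjusted p under 0.05 went from 3 to 5 in LPS-G0 vs. C-G0 and in LPS-G1 vs. LPS-G0, from 0 to 1 in LPS-G1 vs. LPS-G2, from 5 to 9 in C-G2 vs. C-G0, from 1 to 2 in LPS-G1 vs. C-G1, and from 1 to 2 and from 2 to 5 in the interactions for G1 and G2. For these unadjusted counts, and for the calls with 1 array left out in C-G2 vs. C-G0, the share of all probes in the same setting is not given. They are therefore not read as results about the members. The causes were not tested beyond what each alternative changes. No called value reversed its direction under these alternatives. The second probe of Mrpl40 by itself was not among them, and it changed by 0.11 in LPS-G1 vs. LPS-G0. Of the counts of calls and the medians, 348 stayed within their limit and 20 moved beyond it. The limit was a fixed ratio to the main count, or for a median the pooled SD between replicates (0.11). A median could change sign within that limit, as in LPS-G0 vs. C-G0 without C-G0 replicate 1 (-0.05 against 0.05). For single members 631 values kept their side of the threshold, 11 passed it and 25 lost it. With 4 arrays a group and a median SE of 0.18, changes of the size seen in most members could not be told from 0.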
